A study of Homo sapiens with 8 samples.

Results

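The genes described here encode subunits of polycomb repressive complex 1 (PRC1): the chromobox proteins CBX2, CBX6, CBX7 and CBX8, the RING proteins RING1 and RNF2, and the PCGF proteins BMI1, PCGF2 and PCGF5. These 9 genes were chosen with earlier results of these data known. They were matched by symbol, and 8 of them were found among the 25603 genes of the expression table. PCGF2 was not analysed here. HepG2 cells, an established human hepatocarcinoma line, were grown in medium with serum, insulin and dexamethasone. They were exposed for 4 days either to vehicle (DMSO, 0.2% per the labels) or to UNC1999 and valemetostat tosylate given together at 1 µM each (EZHi), which block the enzymes EZH1 and EZH2. There were 4 libraries per group, which the study describes as independent biological replicates. A single cell line and the joint use of the inhibitors mean that neither drug can be read alone.

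PRC1 places ubiquitin on histone H2A (H2AK119ub) through a RING protein bound to a PCGF partner. In canonical PRC1, a chromobox protein binds H3K27me3, the mark that EZH1 and EZH2 write, and the complex carries BMI1 or PCGF2 and a polyhomeotic protein. In variant PRC1, RYBP or YAF2 takes the place of the chromobox protein, and any PCGF protein can be the partner. In liver cells, as elsewhere, these complexes help to keep genes of other lineages silent.

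Levels are deposited log2 values corrected for transcript length, and a gene was called when its limma p, adjusted over all genes tested, was under 0.05. For comparisons between genes, levels were also expressed as estimated FPKM. All 8 hepatocyte markers examined were expressed (mean log2 levels of 11.42 to 18.66). Of these, FGB was called higher (11.42 ± 0.26 to 12.34 ± 0.18, SD, n = 4; limma adjusted p 0.00167), and with libraries paired by replicate number APOA1 and APOB were called higher too and ALB lower (limma adjusted p 0.00812, 0.00155 and 0.0314). Of the 3 fibroblast genes COL3A1 lay near 0.4 in both groups while COL1A1 (5.85 and 6.21) and PDGFRB (8.15 and 8.33) were detected and not called. Blood cell markers were not analysed here. Of the 3 endothelial genes, CDH5 and VWF rose from 2.95 ± 0.49 to 5.24 ± 0.84 and from 4.03 ± 0.17 to 5.48 ± 0.61 (SD, n = 4), whereas PECAM1 lay at 5.36 and 5.40. The part of these markers in the PRC1 values was not tested, and in bulk RNA a change in the make-up of the culture cannot be told apart from a change in RNA per cell.

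Of the 7 PRC1 genes that passed the filter on low levels, CBX2, BMI1 and CBX8 rose and 4 were not called. Over all 20153 genes tested, 8.85% were called higher and 4.27% lower, and 2.73% were called higher among the 7809 genes whose mean reached 10 estimated FPKM, the range in which these 3 genes lie. The split of 1784 higher and 860 lower genes became 2504 and 326 when libraries were centred on that more abundant range, and 780 and 799 when only genes of at least 1 estimated FPKM were tested. The groups did not overlap for the same 3 genes, in the upward direction, as was the case for 10.7% of all genes tested. When libraries of equal replicate number were treated as pairs, 5 genes were called higher (CBX6 and CBX7 in addition) and PCGF5 was called lower, against 14.9% and 15.1% of all genes. The median log2 fold change was 0.38 over the 7 genes and -0.01 over all genes tested.

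**Figure D1:**
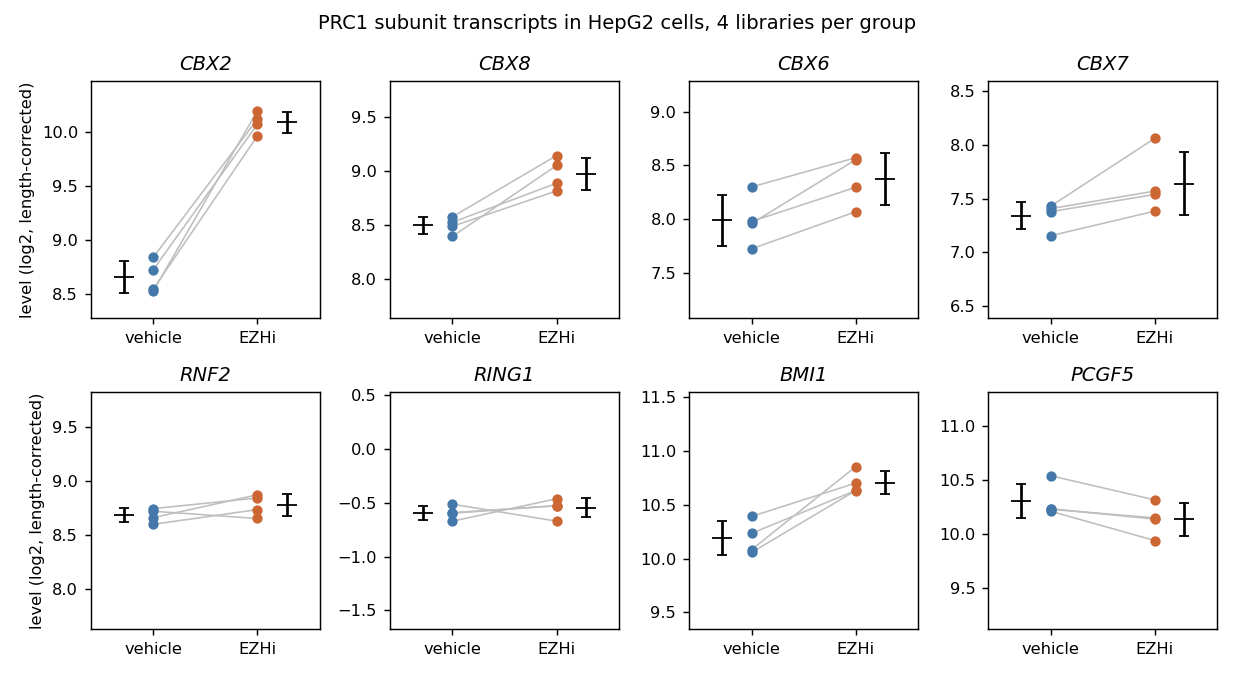
Level of 8 PRC1 genes in each library (y axis: length-corrected log2 value, with panels of equal span around different levels). Points are libraries, grey lines join libraries of equal replicate number, and black bars give the mean and SD of 4 libraries. EZHi libraries lie above all vehicle libraries for CBX2, CBX8 and BMI1, and RING1 lies near -0.6 in both groups.

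Chromobox genes were examined next. CBX2 (ENSG00000173894, GRCh38 chromosome 17, 79778148 to 79787983, plus strand) encodes a chromodomain protein that also compacts nucleosomes. Its log2 levels were 8.54, 8.72, 8.52 and 8.84 in vehicle replicates 1 to 4 and 9.96, 10.07, 10.20 and 10.12 in EZHi replicates 1 to 4. Every EZHi library was thus more than 1 log2 unit above every vehicle library. CBX2 rose by 1.43 log2 units (standard error 0.09, limma adjusted p 8.64e-06), a 2.70-fold rise that was seen in 4 of 4 pairs, from 1.28 to 1.67. In estimated FPKM, CBX2 went from 15.8 ± 1.7 to 42.6 ± 2.9 (SD, n = 4). It ranked at 309 among the 1784 genes called higher.

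CBX8 (ENSG00000141570, chromosome 17, 79792132 to 79801683, minus strand), another H3K27me3 reader, lies next to CBX2. Its log2 levels were 8.49, 8.39, 8.52 and 8.57 in vehicle and 8.81, 9.05, 8.88 and 9.14 in EZHi libraries. The groups were again separate, by a narrower gap than for CBX2. CBX8 rose by 0.48 log2 units (standard error 0.09, limma adjusted p 0.00528), a change positive in 4 of 4 pairs. An antisense transcript, ENSG00000262768, overlaps CBX8, and reads were counted without strand. Its level was 2.24 ± 0.07 in vehicle and 2.51 ± 0.12 in EZHi (SD, n = 4), and how far the shared bases affect the value of CBX8 was not tested.

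The 3' ends of CBX2 and CBX8 face each other 4149 bases apart. The noncoding gene LINC01977, 17400 bases from CBX8, rose from 2.50 ± 0.42 to 3.51 ± 0.35 (SD, n = 4; log2 fold change 1.01, limma adjusted p 0.0163). With a pseudocount of 0.5 on estimated FPKM this log2 fold change was 0.39. The call was lost without vehicle replicate 4 (adjusted p 0.0533) or EZHi replicate 4 (0.0508). Among the other genes within 100 kb, ENPP7, an intestinal sphingomyelinase gene, was at 4.17 ± 0.33 and 4.75 ± 0.34 (SD, n = 4; limma adjusted p 0.1, and 0.00228 with the pairs).

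Whether CBX2 and CBX8 changed to the same extent was tested within libraries. The difference between CBX2 and CBX8 went from 0.16 ± 0.16 in vehicle to 1.11 ± 0.15 in EZHi (SD, n = 4, log2 units). This shift of 0.95 had the smallest p that exact permutation, two-sided, can give with 70 ways to assign 8 libraries (p 0.0286, adjusted p 0.0476 over 5 such comparisons, of which 3 are given and which were chosen after the values were seen). The difference was higher in EZHi in 4 of 4 pairs. When libraries were exchanged only within the 4 pairs, the exact permutation p was 0.125, the smallest that these 16 assignments allow.

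CBX6 (ENSG00000183741, chromosome 22, 38861422 to 38872249, minus strand) encodes a less studied chromobox protein. Its log2 levels were 7.98, 8.30, 7.73 and 7.96 in vehicle and 8.30, 8.57, 8.07 and 8.55 in EZHi libraries. The groups overlapped, since vehicle replicate 2 lay above EZHi replicate 3 and level with EZHi replicate 1. The log2 fold change of 0.38 (95% interval 0.06 to 0.71) was not called without the pairs (limma adjusted p 0.123). With the pairs it was called (limma adjusted p 0.0032), and all 4 pairs were positive, from 0.27 to 0.59. It was also called with the centring on abundant genes (log2 fold change 0.48, limma adjusted p 0.0498).

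CBX7 (ENSG00000100307, chromosome 22, 39120167 to 39152680, minus strand), known as a repressor of the INK4 locus, had log2 levels of 7.41, 7.16, 7.43 and 7.38 in vehicle and 7.57, 7.38, 8.06 and 7.54 in EZHi libraries. EZHi replicate 3 was the highest by a wide margin and EZHi replicate 2 lay within the vehicle range. The log2 fold change was 0.30 (95% interval -0.02 to 0.61; limma adjusted p 0.222), or 0.15 without EZHi replicate 3. It was positive in 4 of 4 pairs and called with them (limma adjusted p 0.0369). The noncoding gene ENSG00000279833 overlaps CBX7 on the other strand, at 2.50 and 2.75 in vehicle and EZHi, and how far it affects the value of CBX7 was not tested.

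The make-up of the chromobox transcripts was then calculated as the share of each gene in the summed estimated FPKM of CBX2, CBX6, CBX7 and CBX8, as a description without a test. The sum itself went from 46.3 ± 2.4 to 83.3 ± 4.9 (SD, n = 4). CBX2 held 32.3% to 36.5% in vehicle and 49.7% to 53.8% in EZHi libraries. CBX8 held 27.6% to 32.8% in vehicle, a range that overlapped that of CBX2, and 21.7% to 25.2% in EZHi. The share of CBX6 was 18.9% to 25.9% in vehicle and 12.3% to 17.7% in EZHi, and that of CBX7 was 11.7% to 15.4% and 7.76% to 12.2%. The shares of these 3 genes were thus lower in EZHi, with overlap for CBX7 alone, although their levels were not, since shares sum to a fixed total.

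**Figure D2:**
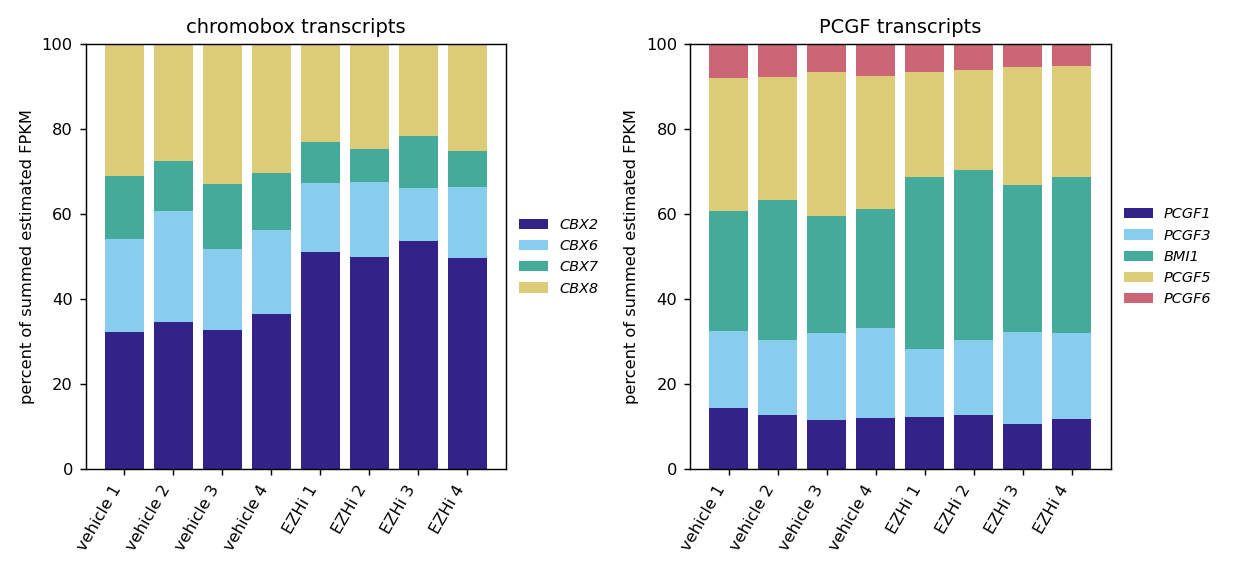
Share of each gene in the summed estimated FPKM of its family, per library (y axis: percent; left, 4 chromobox genes; right, 5 PCGF genes). The CBX2 segment is 32.3% to 36.5% in vehicle and 49.7% to 53.8% in EZHi libraries, and the BMI1 segment 27.4% to 32.8% and 34.5% to 40.5%.

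The catalytic RING genes gave different readings. RNF2 (ENSG00000121481, chromosome 1, 185045526 to 185102603, plus strand) encodes the ubiquitin ligase RING1B. Its log2 levels were 8.66, 8.75, 8.72 and 8.60 in vehicle and 8.87, 8.85, 8.65 and 8.74 in EZHi libraries. EZHi replicates 3 and 4 lay within the vehicle range. RNF2 was not called, with a log2 fold change of 0.10 (95% interval -0.07 to 0.26; limma adjusted p 0.461), nor was it with the pairs (limma adjusted p 0.277), 3 of which were positive. In estimated FPKM it lay at 16.1 ± 0.7 in vehicle and 17.2 ± 1.2 in EZHi (SD, n = 4).

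RING1 (ENSG00000204227, chromosome 6, 33208500 to 33212722, plus strand) encodes the paralogous ligase. Its log2 levels were -0.59, -0.60, -0.51 and -0.67 in vehicle and -0.53, -0.53, -0.67 and -0.46 in EZHi libraries, or 0.026 and 0.027 estimated FPKM. The groups overlapped, and the level was under the filter of 0.1, so that RING1 was not tested. Its neighbours were low as well: RXRB, which encodes a retinoid X receptor, was at -0.61 and -0.52, VPS52, which encodes a subunit of a tethering complex, at -0.78 and -0.69, and TAPBP, which encodes the peptide-loading factor tapasin, at -1.48 and -1.39 in vehicle and EZHi. Even RPS18, a ribosomal protein gene, was at 2.96 and 2.90, against 14.42 and 14.36 for RPL23, another one. Of 50 other protein-coding genes within 1000 kb of RING1, 17 (34%) were matched in the table, with a median level of 3.55, against 77.3% and 7.85 for all protein-coding genes. The low value of RING1 is therefore shared with its surroundings, and what sets it was not tested. The study counted only reads above a minimum alignment quality, and whether reads of this region, or of that around PCGF2 described next, were lost was not tested. The values in both regions may therefore not measure how abundant these transcripts were.

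The region of PCGF2 was looked at in the same way. Within 100 kb of that gene, 4 of 5 matched genes were under the filter, namely MLLT6 (0.20 in both groups), CWC25 (-0.43 and -0.49), PIP4K2B (-0.94 in both groups) and EPOP (-1.04 and -0.95), the last of which encodes a PRC2-associated protein. RPL23, at the edge of this window, was high. Within 1000 kb the median level was 3.51 over 33 matched genes, close to the value around RING1 and under that around RNF2 (7.14) and BMI1 (7.91). The regions differed in other ways. Around PCGF2, 82.5% of 40 other protein-coding genes were matched, against 34% around RING1 and 77.3% of all protein-coding genes. The upper quartile of levels was 8.65 around PCGF2 and 5.39 around RING1.

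**Figure D3:**
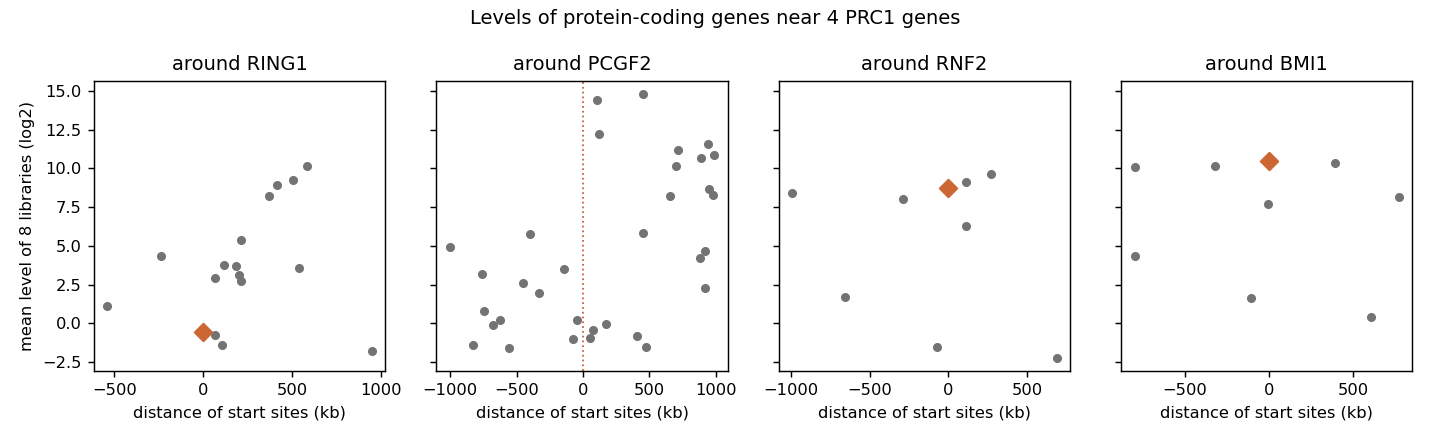
Mean log2 level over 8 libraries (y axis) of protein-coding genes against the distance of their start sites (x axis, kb) from RING1, PCGF2, RNF2 and BMI1. Orange diamonds are the named genes, and the dotted line marks PCGF2, which has no value. RING1 (-0.57) lies among several genes near or under 0, whereas RNF2 (8.73) and BMI1 (10.45) are among the higher genes of their surroundings.

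PCGF proteins differ in the kinds of PRC1 in which they take part. BMI1 (ENSG00000168283, chromosome 10, 22321099 to 22331484, plus strand), the PCGF partner of canonical PRC1 known for repressing the INK4 locus and sustaining stem cells, had log2 levels of 10.08, 10.39, 10.23 and 10.06 in vehicle and 10.85, 10.70, 10.63 and 10.63 in EZHi libraries. All EZHi libraries lay above all vehicle libraries. BMI1 rose by 0.51 log2 units (standard error 0.09, limma adjusted p 0.00418), a change positive in 4 of 4 pairs, from 0.31 to 0.77. In estimated FPKM, BMI1 went from 45.9 ± 5.0 to 65.3 ± 4.9 (SD, n = 4).

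COMMD3, which ends 793 bases before BMI1 and encodes an unrelated COMM domain protein, rose as well, from 7.48 ± 0.22 to 7.90 ± 0.08 (SD, n = 4; log2 fold change 0.42, limma adjusted p 0.0331). This call was lost in 6 of the 8 fits that left out a library, with log2 fold changes from 0.34 (without vehicle replicate 4) to 0.49 (without vehicle replicate 2) over all 8. It was kept with the pairs (limma adjusted p 0.0125). The difference between BMI1 and COMMD3 within libraries went from 2.71 ± 0.09 to 2.81 ± 0.15 (SD, n = 4; exact permutation p 0.371). This shift of 0.09 became 0.23 with quantile normalization (exact permutation p 0.0571). In the annotation, a read-through gene, COMMD3-BMI1, shares 22.8% of the exonic bases of BMI1 and 31.1% of those of COMMD3. Reads on these bases match more than a single gene, and how far this affects the counts was not tested. The exact levels of BMI1 and COMMD3, and the share of BMI1 among the PCGF genes, are therefore uncertain.

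PCGF5 (ENSG00000180628, chromosome 10, 91163012 to 91284337, plus strand), a partner in variant PRC1, had log2 levels of 10.23, 10.21, 10.54 and 10.23 in vehicle and 10.14, 9.94, 10.32 and 10.15 in EZHi libraries. Vehicle replicate 3 stood above the rest of its group, and EZHi replicate 3 overlapped the vehicle range. The log2 fold change was -0.17 (95% interval -0.39 to 0.06; limma adjusted p 0.331), or -0.09 without vehicle replicate 3. It was negative in 4 of 4 pairs, from -0.27 to -0.08, and called lower with them (limma adjusted p 0.0323). The change of BMI1 exceeded that of PCGF5 by 0.68 (difference of -0.11 ± 0.21 in vehicle and 0.57 ± 0.21 in EZHi, SD, n = 4; exact permutation p 0.0286, adjusted p 0.0476), in 4 of 4 pairs. Within the pairs the exact permutation p was again 0.125, the smallest possible. Without EZHi replicate 1 or EZHi replicate 2, the exact permutation p not restricted to pairs was 0.0571, against 0.0286 with all libraries.

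Among the 7 genes named at the outset that passed the filter, PCGF5 and BMI1 were the most abundant in vehicle (49.6 ± 5.7 and 45.9 ± 5.0 estimated FPKM), with overlapping values. RNF2 (16.1 ± 0.7), CBX2 (15.8 ± 1.7) and CBX8 (14.1 ± 0.7) followed without clear separation, then CBX6 (10.1 ± 1.7) and CBX7 (6.36 ± 0.53; SD, n = 4). In EZHi, the order was BMI1 (65.3 ± 4.9), PCGF5 (44.1 ± 4.7), CBX2 (42.6 ± 2.9), CBX8 (19.7 ± 2.1), RNF2 (17.2 ± 1.2), CBX6 (13.1 ± 2.1) and CBX7 (7.91 ± 1.7; SD, n = 4). PCGF5 and CBX2 then overlapped. Within the 5 PCGF genes measured, the share of BMI1 was 27.4% to 32.8% in vehicle and 34.5% to 40.5% in EZHi libraries, and that of PCGF5 was 28.9% to 33.9% and 23.6% to 27.7%. PCGF1 (12.8% ± 1.2 and 12.0% ± 0.9) and PCGF3 (19.4% ± 1.7 and 18.8% ± 2.5; SD, n = 4), both of variant PRC1, had shares that overlapped between groups. That of PCGF6 was 6.53% to 8.04% in vehicle and 5.12% to 6.54% in EZHi.

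The starts of BMI1 and PCGF5 are shown because these partners, of canonical and variant PRC1, had differences of opposite sign in all 4 pairs, and because polycomb complexes are known to act at unmethylated CpG-rich DNA. The 250 bases before each start site (RefSeq, GRCh38.p14, plus strand, chr10:22320849-22321098 for BMI1 and chr10:91162762-91163011 for PCGF5) are printed 5' to 3' with CpG dinucleotides in capitals.
BMI1: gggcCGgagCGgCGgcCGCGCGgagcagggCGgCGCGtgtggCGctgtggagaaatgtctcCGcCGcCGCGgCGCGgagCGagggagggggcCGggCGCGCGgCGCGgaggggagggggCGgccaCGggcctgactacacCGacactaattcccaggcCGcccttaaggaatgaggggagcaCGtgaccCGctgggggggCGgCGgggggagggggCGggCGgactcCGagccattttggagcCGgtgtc
PCGF5: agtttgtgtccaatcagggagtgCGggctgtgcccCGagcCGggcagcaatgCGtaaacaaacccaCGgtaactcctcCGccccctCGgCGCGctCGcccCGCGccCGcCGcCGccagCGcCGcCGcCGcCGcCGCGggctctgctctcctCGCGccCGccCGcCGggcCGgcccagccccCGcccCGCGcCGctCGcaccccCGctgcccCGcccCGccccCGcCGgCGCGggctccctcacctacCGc
BMI1 held 35 CpG dinucleotides in this stretch and PCGF5 held 41. In windows of 300 bases that include 50 bases after the start, 36 were found for BMI1, 55 for PCGF5, 47 for CBX6, 50 for CBX7 and 41 each for RNF2 and RING1, against a median of 14 over 35116 windows of this kind. All of them thus lay in the CpG-rich part of the distribution, at percentiles from 87.3 (BMI1) to 99.6 (PCGF5). BMI1 was the only called gene among them and RING1 was not tested, so called and uncalled genes cannot be compared here. CBX2 and CBX8, both called higher, were not included. The only window of PCGF2 (2 CpG dinucleotides, percentile 11) lay 3189 bases from its annotated start and was left out. Of the 4 windows of PCGF5 and the 2 of BMI1, the window at the annotated start was used. The E-box CACGTG, searched on both strands, occurred once each for BMI1 and CBX6 and in none of the other 4 windows, while 7.26% of all windows hold it. The GC box GGGCGG, on either strand, occurred in all 6 windows and in 45% of all windows.

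Other PRC1 genes were then monitored. Of 23 further genes tested, 4 were called higher and 1 lower (8.85% and 4.27% of all genes), and 5 and 3 with the pairs (14.9% and 15.1% of all genes). Their median log2 fold change was -0.08, against -0.01 for all genes tested. No gene among PCGF1, PCGF3 and PCGF6 was called without the pairs. PCGF3, of variant PRC1, was at 9.60 ± 0.17 and 9.69 ± 0.22 (SD, n = 4; limma adjusted p 0.719). PCGF6, of the germline-gene repressing variant PRC1, had an unadjusted p of 0.0341 and was at 8.23 ± 0.08 and 7.99 ± 0.18 (SD, n = 4; limma adjusted p 0.147), and it was called lower with the pairs (limma adjusted p 0.0279).

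Among 6 polyhomeotic and SCM genes, whose products join PRC1 complexes through SAM domains, 2 were higher and 1 lower (8.85% and 4.27% of all genes). PHC1 went from 8.01, 8.16, 8.04 and 8.05 in vehicle to 8.42, 8.44, 8.54 and 8.48 in EZHi libraries, without overlap (log2 fold change 0.40, limma adjusted p 0.00356). SCML2 rose by 0.57 (6.98 ± 0.14 to 7.55 ± 0.17, SD, n = 4; limma adjusted p 0.00749). PHC2, the most abundant polyhomeotic gene, went the other way, from 10.47 ± 0.08 to 10.16 ± 0.08 (SD, n = 4; log2 fold change -0.31, limma adjusted p 0.0139). The PHC2 call was lost with quantile normalization (-0.21, adjusted p 0.0787), with the centring on abundant genes (-0.21, adjusted p 0.0769) and without EZHi replicate 4 (-0.28, adjusted p 0.0506).

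Of 14 genes of variant PRC1, 2 were called higher and none lower without the pairs (limma), against 8.85% and 4.27% of all genes tested. BCOR was lower at an unadjusted p of 0.0485 (limma adjusted p 0.184). With the pairs, FBRSL1 was called higher in addition and BCOR lower, so 3 and 1, against 14.9% and 15.1% of all genes tested. AUTS2, whose product joins PRC1 with PCGF3 or PCGF5 and has been linked to activation in neurons, had a larger log2 fold change than CBX2 on the deposited scale, but not with a pseudocount of 0.1 (1.40 against 1.43) or 0.5 (0.79 against 1.40) on estimated FPKM. It went from 2.46, 2.57, 2.40 and 2.45 in vehicle to 4.38, 4.37, 3.87 and 4.31 in EZHi libraries, far apart, although its level stayed low (0.217 and 0.741 estimated FPKM). AUTS2 rose by 1.76 log2 units (standard error 0.12, limma adjusted p 1.92e-05). BCORL1, the paralog of the PCGF1 partner BCOR, rose from 6.72 ± 0.23 to 7.46 ± 0.30 (SD, n = 4; log2 fold change 0.74, limma adjusted p 0.0161), and lost its call without vehicle replicate 1 (0.66, adjusted p 0.0507). RYBP and YAF2, the subunits that define variant PRC1, were at 8.09 ± 0.23 and 7.96 ± 0.18, and at 7.44 ± 0.19 and 7.28 ± 0.10 (SD, n = 4), and were not called with or without the pairs.

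**Figure D4:**
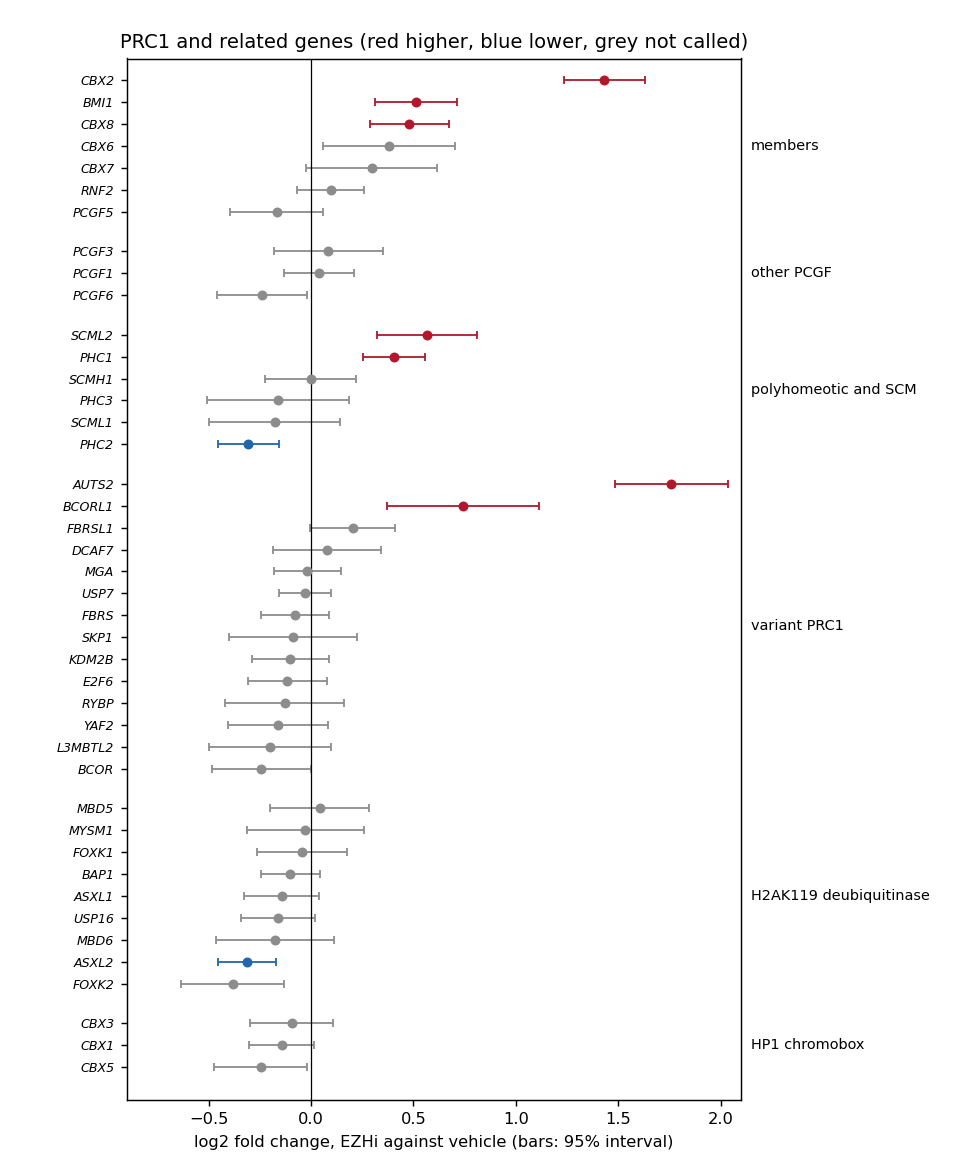
Log2 fold change of EZHi against vehicle (x axis) for PRC1 genes and related lists, with 95% intervals from the limma fit on 4 libraries per group (genes tested only). Red genes were called higher, blue ones lower and grey ones were not called. AUTS2 (1.76) and CBX2 (1.43) lie farthest to the right.

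Genes of H2AK119ub deubiquitinases and their partner proteins, HP1 genes and PRC2 core genes were compared next. Of 9 deubiquitinase and partner genes tested, 1 was called lower and none higher (4.27% and 8.85% of all genes). With the pairs, 3 were called lower (15.1%). No gene that encodes a deubiquitinase itself was called, with or without the pairs. The gene called lower without the pairs was ASXL2, a cofactor of the BAP1 deubiquitinase (9.65 ± 0.08 to 9.34 ± 0.06, SD, n = 4; log2 fold change -0.31, limma adjusted p 0.0103). Its call was lost with the centring on abundant genes (-0.22, adjusted p 0.0669). FOXK2, a DNA-binding partner of BAP1, was at 11.26 ± 0.21 and 10.88 ± 0.15 (SD, n = 4; limma adjusted p 0.0517), and it was called lower with the pairs (limma adjusted p 0.000397), as was ASXL1 (0.0241). FOXK2 was also called lower with median-of-ratios scaling (limma adjusted p 0.0498), without vehicle replicate 2 (0.0374) and without EZHi replicate 3 (0.0409). BAP1 itself was at 11.20 ± 0.10 and 11.10 ± 0.03 (SD, n = 4; limma adjusted p 0.368). The HP1 genes CBX1, CBX3 and CBX5, whose chromodomains read H3K9 methylation, were not called by limma, with log2 fold changes of -0.14, -0.09 and -0.25, of which CBX5 had an unadjusted p of 0.0371. CBX5 was called lower with the pairs (limma adjusted p 0.0173). Of 6 PRC2 core genes none was called by limma, with or without the pairs, and none had an unadjusted p under 0.05 without them. RBBP7 (-0.11) and SUZ12 (-0.11) had the largest log2 fold changes among them, and that of RBBP7 was 0.01 with quantile normalization.

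CDKN2A, the INK4 locus gene classically repressed by BMI1 and CBX7, was at 6.24, 6.65, 6.46 and 6.55 in vehicle and at 8.64, 9.32, 8.90 and 8.86 in EZHi libraries. It thus rose by 2.46 log2 units (standard error 0.15, limma adjusted p 8.06e-06). BMI1 RNA was higher in the same libraries, and how CDKN2A relates to BMI1 or CBX7 here was not tested. CDKN2B, the neighbour of CDKN2A, was at 4.54 ± 0.64 and 4.95 ± 0.61 (SD, n = 4; limma adjusted p 0.535) and was called higher with the pairs (limma adjusted p 0.0413).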

How the data were processed

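RNA-seq was performed on HepG2 cells in 4 EZHi and 4 vehicle libraries, grouped by sample title. Per the paper's methods, the authors aligned reads to hg38 (Hisat2), assigned them to genes by exon (HTSeq, unstranded), dropped genes with few reads, and applied the regularized log of DESeq2 and a correction for mean transcript length. The processing notes of the authors list HISAT2 2.2.1, HTSeq 0.9.1 and DESeq2 1.40.2. The deposited values are therefore log2 values (-6.81 to 19.01), although the table is named FPKM. The regularized log shrinks the changes of genes with few reads.

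Estimated FPKM was the unlogged value divided by 25.6, the mean library sum in 1e6 normalized reads after multiplying by transcript length (GENCODE release 44, the hg38 assembly GRCh38). Read depth is unknown. Of 25603 genes, 20153 with a mean of at least 0.1 were tested with limma 3.58.1 in R 4.3.3 (trended prior, group only, two-sided, Benjamini-Hochberg over all genes tested), and the fit was tested on simulated data. Figures used Python 3.11.15 and matplotlib 3.10.9. All members are named. Of the other lists the called genes are, or, where fewer than 2 were called, the 2 with the largest changes, plus called genes within 100 kb of a member and the 3 genes most correlated with each of the 3 members that changed most. PCGF1, RYBP, YAF2, BCOR, FBRSL1, BAP1, ASXL1, CBX3, ENPP7, APOBEC3C, APOBEC3F, APOBEC3H, PDGFB and the genes around RING1 and PCGF2 were added after their values were seen.

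Deviations from group means correlated between libraries of equal number in all 4 pairs (r from 0.22 to 0.63, and from -0.58 to 0.20 between unequal numbers), so the numbers were taken to pair the libraries. The members and lists were chosen with earlier results of these data known. Alternatives were other filters, pseudocounts, scalings and priors, the replicate block and leaving out each library. Some related results are not reported here.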

Additional observations from a re-analysis of the deposited data

Results flagged for a closer look

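Libraries that stood apart from the other 3 of their group, by Dixon's criterion on the gap over the range, were looked for in 104 groups of 4 values of the PRC1 and related genes. This was met 6 times, where chance gives about 5.2, since about 1 group in 20 is met by chance.

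PCGF5 was at 10.54 in vehicle replicate 3, against 10.21 to 10.23 in the other vehicle libraries, a gap of 0.928 of the range. USP16, an H2A deubiquitinase gene, was at 9.26 in the same library, against 8.99 to 9.02. In EZHi replicate 3, AUTS2 was at 3.87 against 4.31 to 4.38, BAP1 at 11.14 against 11.08 to 11.09, and ASXL3, under the filter on low levels, at -2.19 against -2.28. FBRSL1 was at 9.09 in EZHi replicate 1, against 9.37 to 9.40. Without the library concerned, the log2 fold change of PCGF5 was -0.09 and that of AUTS2 was 1.88.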

How the results depend on the processing

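CBX2, CBX8 and BMI1 kept their direction and their call under all alternatives run, including each of the 8 fits that left out a library, with log2 fold changes from 1.39 to 1.49, 0.42 to 0.53 and 0.46 to 0.58 in those fits. The number of PRC1 members called was 3 in each of them and 6 with the replicate block, which uses the pairing of libraries by number. The block changed the calls of CBX6 (0.38), CBX7 (0.30) and PCGF5 (-0.17), and moved the other PRC1 genes called from 5 to 8 and all genes called from 2644 to 6051. It added, among others, the calls of PCGF6, BCOR, FBRSL1, FOXK2 (also called under 3 other alternatives), ASXL1, CBX5 and CDKN2B given above. The centring on abundant genes also changed the call of CBX6 (0.48). With a pseudocount of 0.5 on estimated FPKM, the low genes AUTS2 and LINC01977 had log2 fold changes of 0.79 and 0.39. Testing only genes of at least 1 estimated FPKM left 1579 calls among 13007 genes, fewer genes being tested. RBBP7 changed sign with quantile normalization (0.0088). PCGF3, which was not called, changed sign without EZHi replicate 3 (-0.0065), with 0.16 without vehicle replicate 3 as its highest value. Leaving out a library moved the number of all genes called between 1811 and 2571. The value of RING1 differed between groups by 0.05, and by 0.02 to 0.09 with a library left out. The depth of each library is unknown, so no counting error can be given. How far the regularized log shrank the changes of low genes such as AUTS2 was not tested.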

Other observations

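Genes near the chromobox genes of chromosome 22 were looked at as well. NPTXR, which encodes a neuronal pentraxin receptor and lies 17394 bases from CBX6, rose from 7.73 ± 0.36 to 8.72 ± 0.29 (SD, n = 4; log2 fold change 0.99, limma adjusted p 0.00761). APOBEC3G, which encodes a cytidine deaminase that restricts retroviruses and lies 32424 bases from CBX7, rose from 5.09 ± 0.13 to 6.20 ± 0.35 (SD, n = 4; log2 fold change 1.11, limma adjusted p 0.00185). Of the other tested genes within 100 kb of CBX6 and CBX7, none was called without the replicate block, including APOBEC3F (log2 fold change 0.33), although APOBEC3F and APOBEC3H had an unadjusted p under 0.05 (limma, 0.0325 and 0.0137). With the replicate block, APOBEC3C and APOBEC3F were called higher and PDGFB lower (limma adjusted p 0.0381, 0.01 and 0.0133). Of 5 genes tested within 100 kb of RNF2 or PCGF5, limma called none with or without the block, and none had an unadjusted p under 0.05.

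Across the 8 libraries, the profile of CBX2 was most like those of PDZD4, TAC3 and PLAGL1 among 20152 other genes (Pearson r 0.997, 0.997 and 0.996), which rose by 1.03, 1.70 and 2.30 on the log2 scale. That of BMI1 was most like those of CMYA5, HECTD2 and ADAM22 (r 0.988, 0.982 and 0.981), and that of CBX8 most like those of GDNF, TSPYL2 and IL21R (r 0.988, 0.987 and 0.986). These correlations are descriptions, since the libraries share their 2 treatments and the best of many genes was taken.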
